A study of Mus musculus with 7 samples.

Results

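The genes described here encode the enzymes that write, copy and remove DNA methylation and the core of Polycomb repressive complex 2. They are the DNA methyltransferase genes Dnmt1, Dnmt3a and Dnmt3b, the maintenance cofactor gene Uhrf1, the 5-methylcytosine dioxygenase genes Tet1, Tet2 and Tet3, and the PRC2 core genes Ezh2, Eed and Suz12. They were taken by name, and all 10 of them were found among the 17422 genes measured. Messenger RNA was sequenced from 7 libraries of wild-type or Ink/Arf -/- Balb/c mouse cells: 3 PDGF-B-labelled gliomas, 3 EGFRvIII-labelled gliomas and 1 neural progenitor culture. For the gliomas, neural precursors of embryonic day 14 were transduced with retroviruses that carried an oncogene and the red fluorescent protein DsRed, kept in medium with bFGF and EGF, and grafted at 20000 cells into adult BALB/c brains after 10 days. The PDGF-B label stands for wild-type precursors given PDGF-B, a growth factor that drives glial precursor proliferation, and the EGFRvIII label for Ink/Arf -/- precursors given a constitutively active epidermal growth factor receptor. Tumours were sorted for DsRed at the onset of neurological symptoms. The culture held wild-type day 14 progenitors transduced with PDGF-B and sorted for DsRed, and it has no replicate.

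The driver genes went against the labels of all 6 gliomas. Egfr stood between 3594 and 5109 CPM (reads scaled by an effective library size) in the PDGF-B-labelled gliomas and between 25.6 and 41.2 CPM in the EGFRvIII-labelled gliomas. Pdgfb stood between 1.95 and 4.88 CPM and between 277 and 386 CPM, and Cdkn2a, the gene of the Ink/Arf locus, between 2.94 and 4.99 CPM and between 11.1 and 26.1 CPM. Groups are therefore named as labelled throughout, and oncogene and genotype cannot be told apart between them. The culture had Pdgfb at 245 CPM, Egfr at 282 CPM and Cdkn2a at 10.7 CPM. By Pdgfb it lay near the EGFRvIII-labelled gliomas and far above the PDGF-B-labelled ones, so a shared label with the culture need not mean a shared driver. Depth ranged from 32513754 to 39062584 recovered reads per library. The effective library sizes behind the CPM were not equal to these. EGFRvIII replicate 2 had one of 33454305 beside 39062584 recovered reads. The summed level of 18 microglia and macrophage markers ranged from 593 to 2092 CPM in the PDGF-B-labelled gliomas and from 7619 to 16416 CPM in the EGFRvIII-labelled gliomas, although cells had been sorted for DsRed. It was 109 CPM in the culture, where C1qb, Trem2, Tyrobp, Adgre1 and Fcrls were at 0. Of 6 neural stem markers the summed level was 7610 CPM in the culture and 739 to 2399 CPM in the gliomas, and of 6 oligodendrocyte precursor markers it was 1928 CPM in the culture and 5097 to 12339 CPM in the gliomas.

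When DNA is copied, the new strand carries no methylation. UHRF1 recognises the half-methylated sites behind the replication fork and recruits DNMT1, which restores the pattern, whereas DNMT3A and DNMT3B set new methylation and TET enzymes oxidise the mark towards its removal. PRC2 methylates lysine 27 of histone H3 to keep developmental genes silent. Its catalytic subunit is EZH2, or EZH1, which is typical of cells that have stopped dividing, and EED and SUZ12 are needed by either. In the nervous system EZH2 is known from dividing neural progenitors, and DNMT3A and TET enzymes from maturing and mature cells.

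Dnmt1 had the highest level of the 10 genes in each group, and Dnmt3b the lowest. Per kilobase of exon, Dnmt1 stood at 26.6 ± 7.62 CPM in the PDGF-B-labelled gliomas and 28.1 ± 8.17 CPM in the EGFRvIII-labelled gliomas (SD, n = 3 each), and Suz12 followed at 17.4 ± 2.93 and 16.9 ± 2.89 CPM. Dnmt3a, Uhrf1, Tet2, Ezh2, Eed and Tet3 lay close together in the PDGF-B-labelled gliomas, between group means of 7.11 and 10.8 CPM per kilobase. Neighbours in that stretch differed by less than the SD of at least 1 of each pair, except Eed and Tet3, whose means of 8.49 ± 0.48 and 7.11 ± 0.33 CPM per kilobase lay farther apart than either SD. Tet1 stood at 4.14 ± 0.45 and Dnmt3b at 0.86 ± 0.05 CPM per kilobase (SD, n = 3 each). In the culture the order was different. Dnmt1 led with 55.4 CPM per kilobase, Uhrf1 came next with 48.7, and Ezh2 with 30.5 and Suz12 with 30.1 CPM per kilobase stood above Eed at 13.8 and Dnmt3a at 10.2. Tet3 at 9.17, Tet2 at 5.77, Tet1 at 3.32 and Dnmt3b at 0.84 CPM per kilobase came last.

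**Figure D1:**
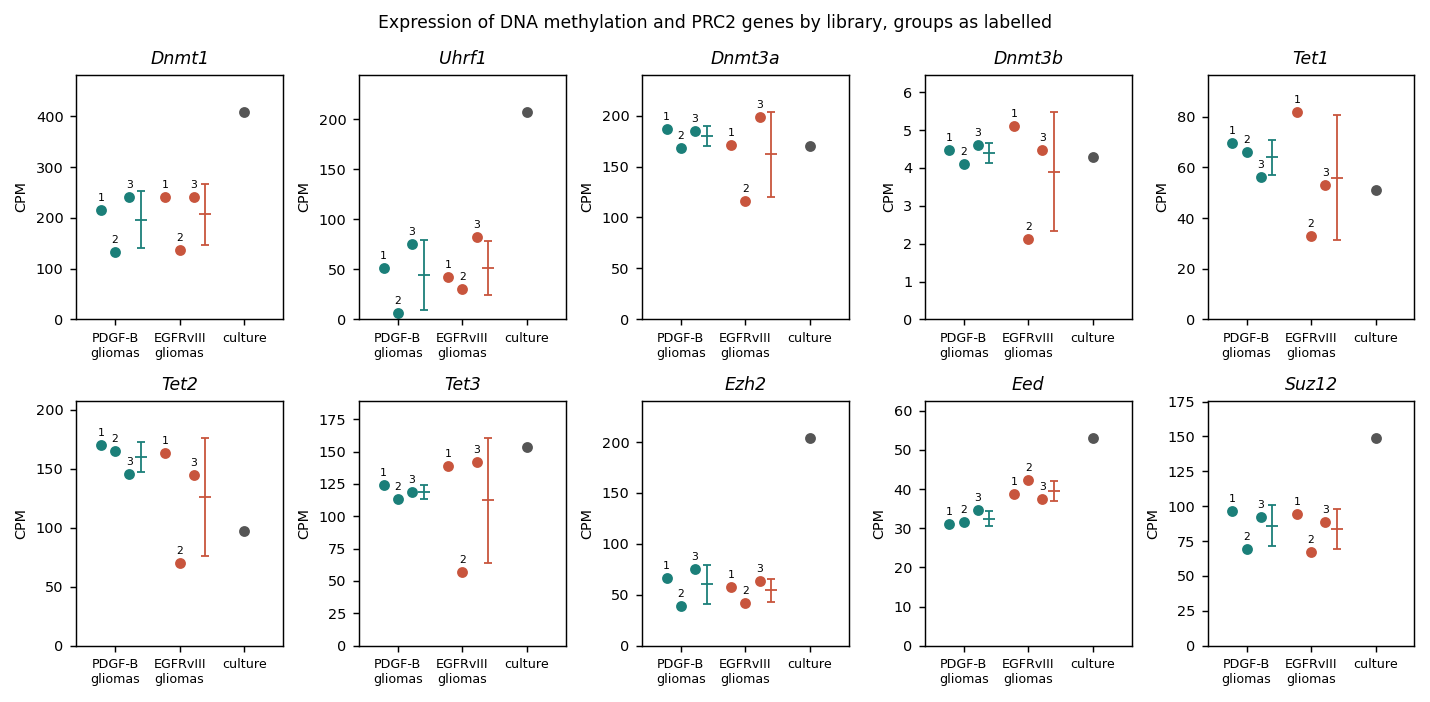
Expression of the 10 genes in each library in CPM (vertical axes, from 0), as points numbered by replicate for the PDGF-B-labelled (green) and EGFRvIII-labelled (orange) gliomas and for the culture (grey), with the mean and SD of 3 gliomas as a bar. The culture stands above all 6 gliomas for Dnmt1, Uhrf1, Tet3, Ezh2, Eed and Suz12, and the lowest Uhrf1 value, 6.23 CPM, belongs to PDGF-B replicate 2.

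The start sites of these genes carry different sequence letters. E2F factors, which switch on DNA replication genes before S phase, are known to bind the octamers TTTCCCGC, TTTCGCGC, TTTGCCGC and TTTGGCGC. These were sought on both strands in windows from 250 bases before to 50 bases after each RefSeq start (GRCm38.p6), a motif chosen with the expression values known. At least 1 window of 4 of the 10 genes held a match: Uhrf1, Dnmt1, Ezh2 and Suz12. No match was present in the windows of Dnmt3a, Dnmt3b, Tet1, Tet2, Tet3 and Eed. Of all 32851 windows, 2.26% held a match, which covers 704 of 27025 genes. Each octamer holds the letters CG, and the median window had 6 CG in its 250 bases before the start. The windows with a match had 30 for Uhrf1, 26 for Dnmt1, 23 for Ezh2 and 37 for Suz12. Windows of the genes without a match had 12 (Eed) to 51 (Tet2). The share among windows of like CG content was not computed. Counted by gene, a match was found in 9 of 25 DNA replication genes and 1 of 26 mitosis genes with a window. One stretch with a match is shown for each of these 4 genes, to let the letters be seen beside their values, with Tet2 as a gene without a match. Each is printed 5′ to 3′ on the strand of the gene, with the octamer or its reverse complement in capitals.
Uhrf1: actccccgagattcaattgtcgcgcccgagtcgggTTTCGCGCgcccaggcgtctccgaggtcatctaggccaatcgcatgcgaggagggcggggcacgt
Dnmt1: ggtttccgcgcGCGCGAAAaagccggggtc
Ezh2: ggcgattgggttgctgcgTTTGGCGCtcgg
Suz12: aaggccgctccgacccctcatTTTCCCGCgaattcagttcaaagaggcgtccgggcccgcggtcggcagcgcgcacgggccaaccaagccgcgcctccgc
Tet2: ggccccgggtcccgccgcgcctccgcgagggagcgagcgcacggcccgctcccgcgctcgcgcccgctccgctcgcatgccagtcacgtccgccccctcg
The Uhrf1 stretch is chr17:56304093-56304192 (plus strand), before one RefSeq start and inside an intron of longer transcripts, and its octamer begins 185 bases before that start. The Dnmt1 stretch, chr9:20952824-20952853 (minus strand), lies in the 5′ untranslated region of the transcript Dnmt1-201 and 219 bases before the start of a shorter form, and its octamer is on the opposite strand. The Ezh2 stretch, chr6:47595016-47595045 (minus strand), spans the RefSeq start, with the octamer beginning at base 4 from that start. All of it lies in the 5′ untranslated region of another transcript, Ezh2-215. The Suz12 stretch is chr11:79992866-79992965 (plus strand), upstream of the gene, with its octamer 219 bases before the start. The Tet2 stretch, chr3:133544391-133544490 (minus strand), ends at the base before its RefSeq start, in an intron of the longer transcript Tet2-205. A match describes letters in a window and not binding.

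The comparison of the glioma groups asked how the PDGF-B and EGFRvIII models differ, and none of the 10 genes passed its test. It called 0 of 10, and 0 also at an unadjusted p under 0.05, with limma, while 3.35% of all genes were called (0.717% higher and 2.63% lower under the PDGF-B label). With voom weights the count was 0 as well. In these bulk libraries, fewer cells that express a gene and less of its RNA per cell cannot be told apart.

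Among the maintenance genes, Uhrf1 (ENSMUSG00000001228, chromosome 17, 56303321 to 56323486, GRCm38) stood at 51.6, 6.23 and 74.9 CPM in the PDGF-B-labelled gliomas, at 42.1, 30.05 and 82.0 CPM in the EGFRvIII-labelled gliomas, and at 207 CPM in the culture. The groups of gliomas overlapped, and PDGF-B replicate 2 lay far below every other library. The log2 difference between the groups was -0.70 ± 0.90 (SE, limma adjusted p = 0.706), and it was 0.40 without that replicate. Dnmt1 (ENSMUSG00000004099, chromosome 9, 20907209 to 20959888), the maintenance methyltransferase gene, stood at 215, 133 and 241 CPM in the PDGF-B-labelled gliomas, at 242, 137 and 242 CPM in the EGFRvIII-labelled gliomas, and at 409 CPM in the culture. Replicate 2 was the lowest in each group, and the groups overlapped almost fully, with a log2 difference of -0.07 ± 0.32 (SE, limma adjusted p = 0.918).

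The de novo methyltransferase gene Dnmt3a (ENSMUSG00000020661, chromosome 12, 3806007 to 3914443) stood at 187, 168 and 185 CPM in the PDGF-B-labelled gliomas, at 171, 117 and 198 CPM in the EGFRvIII-labelled gliomas, and at 170 CPM in the culture. Its 3 values under the PDGF-B label lay within the range of the other group. Dnmt3b (ENSMUSG00000027478, chromosome 2, 153649450 to 153687730), which is best known from early embryonic cells, stood at 4.47, 4.09 and 4.60 CPM, at 5.11, 2.12 and 4.48 CPM, and at 4.30 CPM in the same order. Between 71 and 178 reads stood behind each of these values. Per kilobase, Dnmt3a was 10.3 to 16.9 times as abundant as Dnmt3b in the gliomas and 12.1 times in the culture. The log2 differences between the glioma groups were 0.18 ± 0.23 for Dnmt3a and 0.26 ± 0.40 for Dnmt3b (SE, limma adjusted p = 0.697 and 0.753).

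The TET genes were lowest in 1 library, EGFRvIII replicate 2. Tet1 (ENSMUSG00000047146, chromosome 10, 62804570 to 62908996) stood at 69.6, 66.2 and 56.3 CPM in the PDGF-B-labelled gliomas, at 82.0, 32.8 and 53.1 CPM in the EGFRvIII-labelled gliomas, and at 51.3 CPM in the culture. Tet2 (ENSMUSG00000040943, chromosome 3, 133463679 to 133545139), which lacks the DNA-binding CXXC domain of Tet1 and Tet3, stood at 170, 165 and 146 CPM, at 164, 69.7 and 145 CPM, and at 97.3 CPM in the same order. Tet3 (ENSMUSG00000034832, chromosome 6, 83362373 to 83459084) stood at 124, 113 and 119 CPM, at 139, 56.9 and 142 CPM, and at 153 CPM. The groups overlapped for each of the 3 genes. Log2 differences were 0.29 ± 0.32, 0.43 ± 0.32 and 0.19 ± 0.35 (SE, limma adjusted p = 0.670, 0.530 and 0.790). The balance between the TET genes varied less than their levels. Of the summed TET level per kilobase, Tet2 held 41.6% to 46.9% in the gliomas and 31.6% in the culture, Tet3 32.6% to 41.3% and 50.2%, and Tet1 16.7% to 22.8% and 18.2%. The culture lay outside the range of the 6 gliomas for Tet2 and Tet3, and as 1 library it gives no test.

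Of the PRC2 core, the catalytic subunit gene Ezh2 (ENSMUSG00000029687, chromosome 6, 47530139 to 47595341) stood at 66.1, 38.7 and 75.6 CPM in the PDGF-B-labelled gliomas, at 57.5, 41.8 and 63.8 CPM in the EGFRvIII-labelled gliomas, and at 204 CPM in the culture. Replicate 2 was again the lowest in each group. Suz12 (ENSMUSG00000017548, chromosome 11, 79993106 to 80034123), the scaffold subunit gene, stood at 96.3, 69.4 and 92.3 CPM, at 94.6, 67.4 and 88.4 CPM, and at 149 CPM in the same order. Their log2 differences between the glioma groups were 0.11 ± 0.29 and 0.04 ± 0.21 (SE, limma adjusted p = 0.859 and 0.928), so the groups differed by less than the spread between their replicates. Eed (ENSMUSG00000030619, chromosome 7, 89954654 to 89980983), whose product reads the mark that PRC2 writes, stood at 31.2, 31.7 and 34.6 CPM, at 38.7, 42.4 and 37.6 CPM, and at 53.0 CPM. It was the 1 gene of the 10 whose glioma groups did not overlap, a pattern seen in 22.9% of all genes. Its log2 difference of -0.28 ± 0.16 missed the threshold (SE, limma adjusted p = 0.417). Reads of Eed, Ezh2 and Suz12 may be shared with E230029C05Rik, Gm26625 and Gm26563, measured genes that overlap them on the other strand, because no source used here says whether counting used strand.

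The 2 libraries with low values differed in which genes were low. In PDGF-B replicate 2, set against the mean of replicates 1 and 3, the log2 offset was -3.31 for Uhrf1, -0.87 for Ezh2, -0.77 for Dnmt1 and -0.44 for Suz12, and between -0.15 and 0.08 for Dnmt3a, Dnmt3b, Tet1, Tet2, Tet3 and Eed. Uhrf1 was 10.2-fold below the mean CPM of the other replicates, and 0.442% of all genes had an offset as low. For Ezh2, Dnmt1 and Suz12 these shares were 10.5%, 11.9% and 19.5%, so their offsets were not rare among genes. The same library had low cell cycle genes, with median offsets of -2.68 over 30 mitosis genes and -2.16 over 30 DNA replication genes, among them Mki67 at 64.6 CPM against 512 and 554 CPM in replicates 1 and 3. Over the 13 cofactors and readers of DNA methylation and the 9 other PRC2 subunits the median offsets there were 0.05 and -0.13. Of genes named after their values were seen, offsets were -2.10 for Hells, a chromatin remodeller gene needed for DNA methylation, -2.78 for Cdca7, its activator, and -1.72 for Phf19, which encodes an accessory protein of PRC2.

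In EGFRvIII replicate 2 the order was different. Its log2 offsets from the mean of replicates 1 and 3 were -1.30 for Tet3, -1.15 for Dnmt3b, -1.14 for Tet2, -1.01 for Tet1, -0.97 for Uhrf1, -0.82 for Dnmt1, -0.66 for Dnmt3a, -0.53 for Ezh2, -0.44 for Suz12 and 0.15 for Eed. Of all genes, 8.03% had an offset there as low as that of Tet3. The shares were 10.1% for Dnmt3b, 10.2% for Tet2, 12.4% for Tet1, 13.1% for Uhrf1 and 16.5% or more for the others. None was as rare as the Uhrf1 offset in PDGF-B replicate 2, at 0.442%. Here the TET genes were lower than Ezh2 and Suz12, and the mitosis genes stood close to their group, with a median offset of -0.21. The DNA replication genes had one of -0.73. The median offset of all genes in this library moved with exon length, from 0.55 for genes of up to 1 kilobase to -0.47 for the 852 genes over 12 kilobases. The exons of Tet1, Tet2, Tet3 and Dnmt3a sum to 15.5 to 16.9 kilobases, and 166 genes between 15 and 17 kilobases had a median offset of -0.52 there. In PDGF-B replicate 2 the same bin had a median offset of 0.04. Dnmt3b and Uhrf1 have shorter exon sums, 5.11 and 4.26 kilobases. They lie with Dnmt1, Ezh2 and Suz12 among genes of 4 to 8 kilobases, whose median offset in EGFRvIII replicate 2 was -0.09. The microglia and macrophage markers were also highest in EGFRvIII replicate 2, at 16416 CPM. Their part in its low TET values was not tested.

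**Figure D2:**
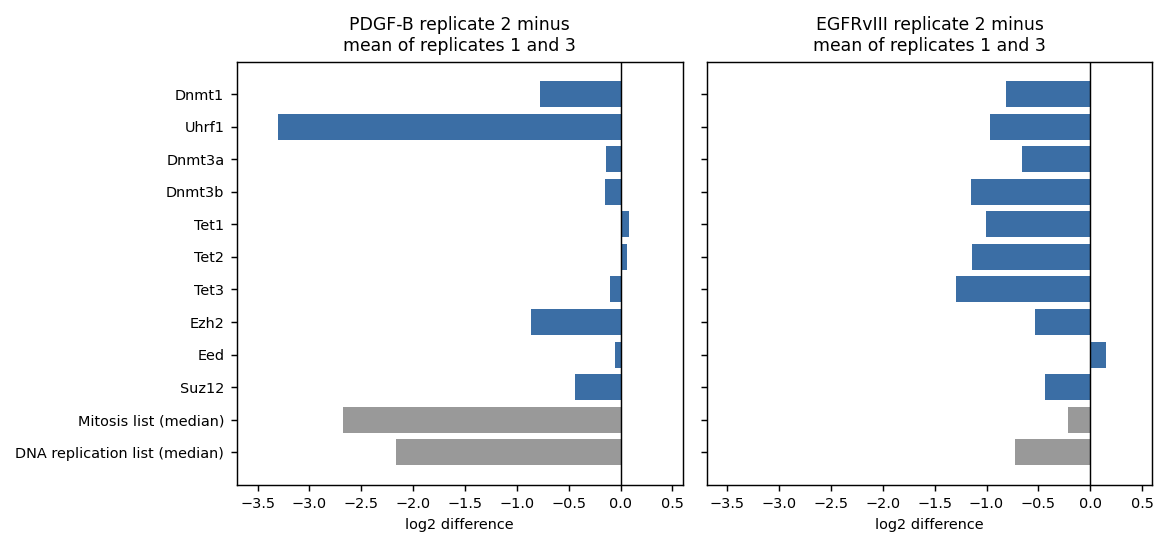
Log2 offset (horizontal axes) of each of the 10 genes (blue bars), and the median offset of the mitosis and DNA replication lists (grey bars), in replicate 2 of each glioma group against the mean of replicates 1 and 3 of that group. The left panel is led by Uhrf1 at -3.31 and the right panel by Tet3 at -1.30.

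Which genes follow proliferation was then examined over the 6 gliomas, against the mean log2 CPM of the 30 mitosis genes, a list that holds none of the 10. That mean was 5.87, 3.09 and 5.83 in PDGF-B replicates 1 to 3, 5.45, 5.34 and 5.72 in EGFRvIII replicates 1 to 3, and 7.16 for the culture. Ezh2 had a Pearson r of 0.78 (exact permutation p = 0.0042, adjusted over the 10 relations p = 0.0417) and a Spearman rho of 0.94 (exact permutation p = 0.0167, adjusted p = 0.167). Without the 2 gliomas farthest from the median, PDGF-B replicates 2 and 1, its r over 4 gliomas was 0.93. Uhrf1 had the highest r, 0.96 (exact permutation p = 0.0139, adjusted p = 0.0694), with a rho of 0.77 (exact permutation p = 0.103, adjusted p = 0.257) and an r of 0.96 without those 2 gliomas. For Dnmt1 r was 0.73 (exact permutation p = 0.0417, adjusted p = 0.139), rho 0.43 (exact permutation p = 0.419, adjusted p = 0.524) and r without the 2 gliomas 0.71. Suz12 had an r of 0.68 (exact permutation p = 0.0806, adjusted p = 0.201), a rho of 0.77 (exact permutation p = 0.103, adjusted p = 0.257) and an r of 0.63 without them. Ezh2 was thus the 1 gene of the 10 that passed, and it passed by r and not by rho.

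The remaining genes had r between -0.13 and 0.34 with the mitosis genes (exact permutation p from 0.582 to 0.807). For these genes r changed when the same 2 gliomas were left out. Only PDGF-B replicate 2 lay far from the rest, with a mitosis mean of 3.09. PDGF-B replicate 1, at 5.87, lay near the other gliomas. Without them Eed went from 0.34 to -0.94 and Tet2 from -0.12 to 0.61, so no relation could be read for them. Against the mean of the 30 DNA replication genes, Uhrf1 (r = 0.99), Dnmt1 (r = 0.83) and Ezh2 (r = 0.83) passed by r (exact permutation p = 0.0028, 0.0069 and 0.0139, adjusted p = 0.0278, 0.0347 and 0.0463). None of them passed by rho, which was 0.94, 0.83 and 0.71 (exact permutation p = 0.0167, 0.0583 and 0.136, adjusted p = 0.167, 0.227 and 0.227). Dnmt3a and Tet3 had a rho of 0.77 each with that list, above Ezh2, and Dnmt3b one of 0.71. The Ezh2 call against mitosis genes ended when each library was centred on its median (r = 0.70, adjusted p = 0.347, exact permutation), under quantile normalization and over all 7 libraries. With 1 glioma left out, the smallest adjusted exact permutation p that 1 gene can reach alone is 0.0833, so those fits cannot show whether the call is stable, and r stayed between 0.76 and 0.96. Adjusted p for it ranged from 0.0417 to 0.347 over 13 alternatives (exact permutation), and r from 0.70 to 0.96.

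**Figure D3:**
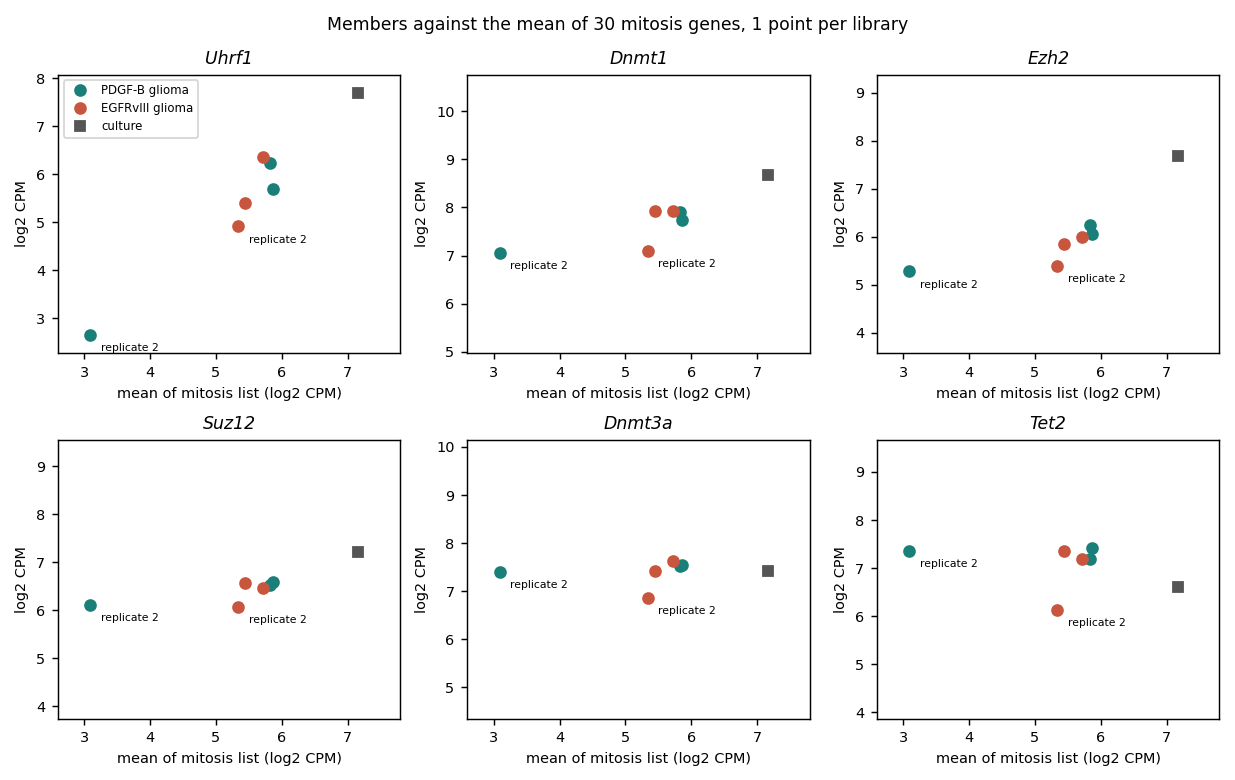
Log2 CPM of 6 of the genes (vertical axes, each spanning the same number of log2 units) against the mean log2 CPM of 30 mitosis genes (horizontal axes), 1 point per library: PDGF-B-labelled (green) and EGFRvIII-labelled (orange) gliomas and the culture (grey square). Uhrf1 falls by the most in PDGF-B replicate 2, at a mitosis mean of 3.09, while Dnmt3a and Tet2 stand near their group there.

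The gliomas were next set against the progenitor culture, which bears on how transduced cells growing in a dish differ from tumours. The Pdgfb level of the culture, 245 CPM, was far above that of the PDGF-B-labelled gliomas. Driver and growth in a tumour therefore cannot be told apart in that comparison. Ezh2 fell in both glioma groups and was the only 1 of the 10 to pass the test in either. For the PDGF-B-labelled gliomas the log2 difference was -1.82 ± 0.41 (SE, limma adjusted p = 0.0372) and for the EGFRvIII-labelled gliomas -1.93 ± 0.41 (SE, limma adjusted p = 0.0290). Ezh2 in the culture, at 204 CPM, was 3.56 times the mean of the 6 gliomas, and no glioma exceeded 75.6 CPM. Of all genes, 9.45% were called for the PDGF-B label and 9.55% for the EGFRvIII label, and 1.73% and 1.34% were called lower, and 1 gene is too small a count to set against these shares. The culture is 1 library whose spread is taken to equal that of the gliomas, and both comparisons share it. The Ezh2 calls ended without PDGF-B replicate 1, EGFRvIII replicate 1 or EGFRvIII replicate 3 (and, for the EGFRvIII-labelled gliomas, without EGFRvIII replicate 2) with voom weights and, for the PDGF-B-labelled gliomas, under quantile normalization, with limma adjusted p from 0.0139 to 0.0757 and from 0.0092 to 0.0672 over 14 alternatives each. With replicate 2 of both groups left out, Ezh2 was called in each comparison.

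**Figure D4:**
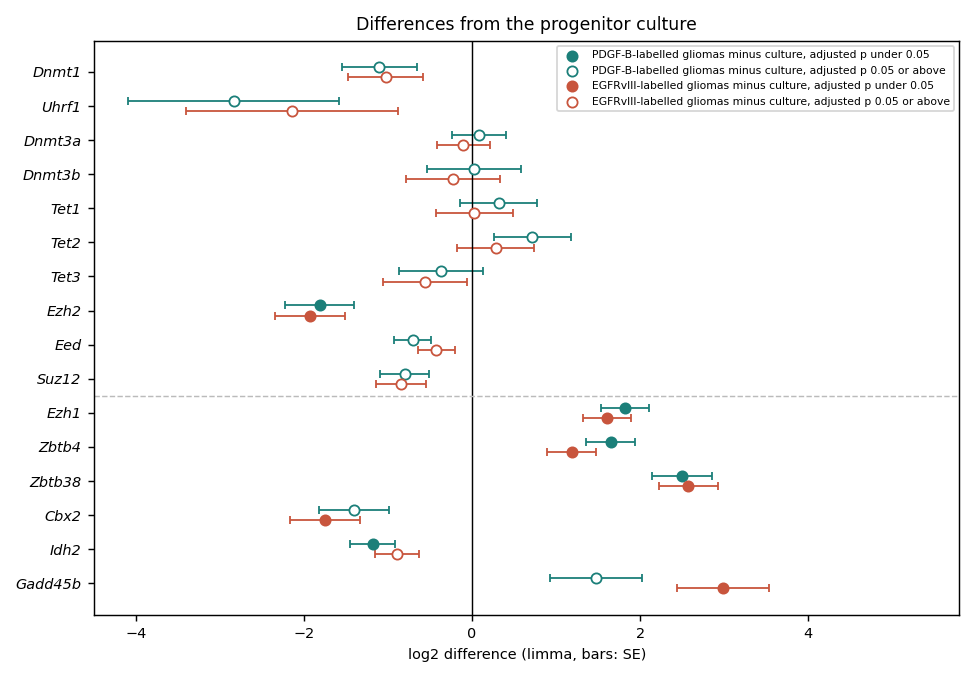
Log2 difference from the culture (horizontal axis, limma, bars are SE) of the 10 genes and, below the dashed line, of 6 genes of their pathways, for the PDGF-B-labelled (green) and EGFRvIII-labelled (orange) gliomas. Filled points had an adjusted p under 0.05: Ezh2 lies to the left for both groups, and Ezh1, Zbtb4 and Zbtb38 lie to the right.

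Uhrf1, Dnmt1, Suz12 and Eed had lower values in the gliomas that missed the threshold. Uhrf1 had the largest difference, -2.84 ± 1.26 for the PDGF-B-labelled gliomas and -2.14 ± 1.26 for the EGFRvIII-labelled gliomas (SE, limma adjusted p = 0.197 and 0.361). Dnmt1 gave -1.10 ± 0.45 and -1.03 ± 0.45 (SE, limma adjusted p = 0.167 and 0.218), Suz12 -0.80 ± 0.30 and -0.85 ± 0.30 (SE, limma adjusted p = 0.137 and 0.132), and Eed -0.71 ± 0.22 and -0.42 ± 0.22 (SE, limma adjusted p = 0.0930 and 0.304). The culture stood above all 6 gliomas for 6 of the 10 genes, Dnmt1, Uhrf1, Tet3, Ezh2, Eed and Suz12, against 24.0% of all genes. The mitosis genes stood higher in the culture as well, all 30 of them in each comparison, with medians of -2.34 and -1.74 on the log2 scale and 0 called by limma (unadjusted p was under 0.05 for 10 and 0). Their part in the Ezh2 difference was not tested.

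Suz12 and Eed passed in some alternatives. With the exon length trend removed from each library, a setting added after the data were seen, the PDGF-B-labelled gliomas had 3 genes called lower, Ezh2, Suz12 (-1.07, limma adjusted p = 0.0432) and Eed (-0.997, limma adjusted p = 0.0309), and the EGFRvIII-labelled gliomas had 2, Ezh2 and Suz12 (-1.20, limma adjusted p = 0.0305). Eed also passed for the PDGF-B-labelled gliomas without EGFRvIII replicate 2 (limma adjusted p = 0.0468). Over the 14 alternatives limma adjusted p for the PDGF-B-labelled gliomas ranged from 0.0432 to 0.276 for Suz12 and from 0.0309 to 0.251 for Eed, and for the EGFRvIII-labelled gliomas from 0.0305 to 0.209 for Suz12.

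The de novo and TET genes lay near the culture. Dnmt3a differed from it by 0.08 ± 0.32 and -0.10 ± 0.32 on the log2 scale, Dnmt3b by 0.03 ± 0.56 and -0.23 ± 0.56, and Tet1 by 0.31 ± 0.46 and 0.03 ± 0.46 (SE, PDGF-B and then EGFRvIII label, limma adjusted p from 0.692 to 0.982). Tet3 differed by -0.37 ± 0.50 and -0.56 ± 0.50 (SE, limma adjusted p = 0.670 and 0.552). Tet1 and Tet2 stood above the culture in 5 of 6 gliomas, all but EGFRvIII replicate 2. Tet2 was farther from it, with each PDGF-B-labelled glioma at 146 CPM or more beside 97.3 CPM, yet its differences of 0.72 ± 0.46 and 0.28 ± 0.46 missed the threshold (SE, limma adjusted p = 0.342 and 0.771).

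Ezh1, the alternative catalytic subunit gene of PRC2, went the other way from Ezh2. It stood at 23.8, 28.7 and 24.2 CPM in the PDGF-B-labelled gliomas, at 23.2, 18.9 and 24.4 CPM in the EGFRvIII-labelled gliomas, and at 7.18 CPM in the culture. All 6 gliomas lay above the culture, and the log2 differences of 1.82 ± 0.28 and 1.61 ± 0.28 passed (SE, limma adjusted p = 0.01001 and 0.0136). Per kilobase, the ratio of Ezh1 to Ezh2 was 0.32, 0.66 and 0.29 in the PDGF-B-labelled gliomas, 0.36, 0.40 and 0.34 in the EGFRvIII-labelled gliomas, and 0.032 in the culture. The ratio was computed after the values were seen. It was highest in PDGF-B replicate 2, the library of lowest mitosis level, and lower in the culture than in any glioma, although Ezh2 exceeded Ezh1 in every library. The ratio of Uhrf1 to Dnmt1 per kilobase ran from 0.081 in PDGF-B replicate 2 to 0.59 in EGFRvIII replicate 3, and was 0.88 in the culture.

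**Figure D5:**
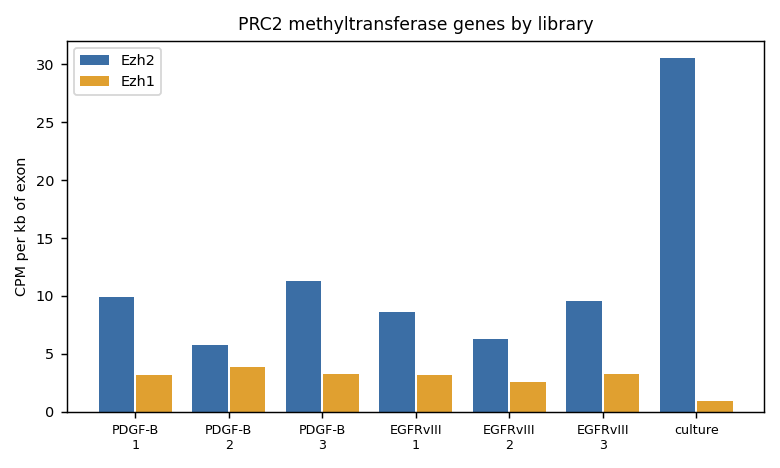
CPM per kilobase of exon (vertical axis, from 0) of Ezh2 (blue) and Ezh1 (orange), 1 pair of bars per library. Ezh2 is the taller bar in all 7 libraries, and the gap is widest in the culture, where Ezh1 is 0.032 times Ezh2.

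The rest of the pathways was described by lists of cofactors and readers of DNA methylation, TET and demethylation genes, other PRC2 subunits, histone H3 demethylases and opposing writers, and PRC1 subunits. Between the glioma groups 0 of their 64 measured genes were called, while 5 had an unadjusted limma p under 0.05, and voom weights also gave 0. Against the culture 3 were called higher and 1 lower in the PDGF-B-labelled gliomas, where 7.73% and 1.73% of all genes were, and 4 higher and 1 lower in the EGFRvIII-labelled gliomas, where 8.20% and 1.34% of all genes were. The median log2 difference over the 64 genes was -0.05 and -0.33, against 0.04 and 0.01 over all genes. For the 10 genes themselves the medians were -0.54 and -0.49.

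Of 13 cofactors and readers, 2 rose in both glioma groups against the culture. Zbtb38 and Zbtb4 encode zinc finger proteins that bind methylated DNA. Zbtb38 stood at 81.6 ± 20.4 and 86.0 ± 19.8 CPM in the gliomas (SD, n = 3 each) and at 14.1 CPM in the culture, and Zbtb4 at 64.3 ± 13.1 and 46.3 ± 5.89 CPM and at 20.2 CPM. Their log2 differences were 2.50 ± 0.36 and 2.58 ± 0.36 for Zbtb38 and 1.65 ± 0.29 and 1.19 ± 0.29 for Zbtb4 (SE, limma adjusted p from 0.0050 to 0.0478). Hells and Cdca7 of the same list stood at 156 and 41.8 CPM in the culture, above all 6 gliomas, and missed the threshold in each comparison (limma adjusted p from 0.123 to 0.565).

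Of 13 TET and demethylation genes, Idh2 fell in the PDGF-B-labelled gliomas. It encodes the mitochondrial enzyme that makes the TET cosubstrate 2-oxoglutarate, and its level was 37.2 ± 4.54 CPM (SD, n = 3), with 84.1 CPM in the culture (log2 difference -1.18 ± 0.26, SE, limma adjusted p = 0.0343). In the EGFRvIII-labelled gliomas it stood at 45.6 ± 6.67 CPM (SD, n = 3, limma adjusted p = 0.0845). Gadd45b, a stress-induced gene tied to active demethylation, rose in the EGFRvIII-labelled gliomas, to 31.5 ± 13.8 CPM (SD, n = 3) from 3.71 CPM in the culture (log2 difference 2.98 ± 0.55, SE, limma adjusted p = 0.0166). It stood at 10.9 ± 4.23 CPM in the PDGF-B-labelled gliomas (SD, n = 3, limma adjusted p = 0.140). Tdg, the glycosylase gene that removes the oxidised bases TET enzymes make, stood at 52.7 ± 6.61 and 63.9 ± 4.98 CPM (SD, n = 3 each) and at 88.9 CPM in the culture, and did not pass (limma adjusted p = 0.0900 and 0.273).

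Of 9 other PRC2 subunits, Ezh1 was the 1 gene called. Rbbp7, a histone-binding subunit gene, and Mtf2, which encodes a subunit that brings PRC2 to CpG islands, were higher in the culture, at 194 and 113 CPM, than in every glioma, and missed the threshold (limma adjusted p from 0.108 to 0.253). Of 19 PRC1 genes, Cbx2 was called lower in the EGFRvIII-labelled gliomas. It encodes a reader of the PRC2 mark and stood at 6.51 ± 1.49 CPM there, at 8.29 ± 1.77 CPM in the PDGF-B-labelled gliomas (SD, n = 3 each) and at 21.7 CPM in the culture. Its log2 differences were -1.75 ± 0.42 and -1.41 ± 0.42 (SE, limma adjusted p = 0.0417 and 0.0802). Of 10 demethylases and opposing writers, 0 were called in either comparison with limma, and 0 had an unadjusted p under 0.05. Nsd2 came closest there, at 261 ± 58.7 and 256 ± 48.4 CPM (SD, n = 3 each) and 439 CPM in the culture (limma adjusted p = 0.203 and 0.221).

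Of a list of 15 germline genes that DNA methylation is known to silence, 3 were measured, and 1 of them was called higher in each comparison with the culture, where 7.73% and 8.20% of all genes were. It was Brdt, a testis bromodomain gene, at 11.8 ± 3.98 and 10.1 ± 0.58 CPM (SD, n = 3 each) beside 2.52 CPM in the culture (log2 differences 2.15 ± 0.44 and 1.98 ± 0.44, SE, limma adjusted p = 0.0251 and 0.0311). Sycp1, a gene of the meiotic synaptonemal complex, differed by -0.02 ± 0.68 and -0.21 ± 0.68 on the log2 scale (SE, limma adjusted p = 0.990 and 0.894). Sycp3, of the same complex, rested on 8 to 31 reads per library and differed by 1.27 ± 0.67 and 1.41 ± 0.67 (SE, limma adjusted p = 0.264 and 0.257).

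Genes of like pattern were sought by Pearson r of log2 CPM over the 7 libraries, as a description. There were 10755 genes with a mean log2 CPM of at least 3. Those without a symbol or with a Gm or Rik name were then left out, so an unnamed gene may rank higher. Uhrf1 was most like Dsn1, a kinetochore gene, and Rrm2, a ribonucleotide reductase gene (r = 0.997 each). Ezh2 was most like Usp1, which encodes a deubiquitinase of DNA repair (r = 0.998), and Rfc3, a clamp loader gene (r = 0.992), and Dnmt1 most like Haus6 (r = 0.994) and Mcph1 (r = 0.989), both genes of the spindle and centrosome. Suz12 was nearest to the kinase genes Wnk1 (r = 0.994) and Prkaa1 (r = 0.992), and Eed to Pmm1 and Polk (r = 0.988 each). Tet1 was nearest to Acap2 (r = 0.994) and Rcor3 (r = 0.988), Tet2 to Pik3c2b and Zbtb49 (r = 0.995 each), and Tet3 to Slx4 (r = 0.988) and Cdk13 (r = 0.986). Dnmt3a was nearest to Dock6 (r = 0.991) and Ep400 (r = 0.984), and Dnmt3b to Masp2 (r = 0.995) and Gabpb2 (r = 0.990). With 7 points and many genes, values this high also arise for genes with no shared role, and the points share the low libraries described above.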

How the data were processed

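The 7 libraries were sequenced on a BGISEQ-500, per the labels' protocols, which name both poly(A) selection and ribosomal RNA removal. STAR, edgeR and mm10 are named in the submitters' processing notes, without versions. The sources used here give no counter, scaling method or gene filter. The authors deposited log2 CPM for 17422 Ensembl genes, per the file headers (the file of EGFRvIII replicate 3 names no unit). Values share a floor of -4.12, which a prior count of 2 gives. Reads were recovered from the deposited values at hundredths of a read, of which 36.2% to 38.6% per library were whole within 0.02, so estimated counts lie behind them; printed CPM are without the prior. Intervals of counting error were not used.

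Symbols came from GENCODE M21 (GRCm38) for 17254 genes, with 168 unmatched, and promoter windows from RefSeq. The deposited log2 values were tested with limma 3.58.1 in R 4.3.3 (trend, robust), adjusted by Benjamini-Hochberg over all genes, with calls at an adjusted p of 0.05. Glioma groups were compared over 6 libraries, and each with the culture over 7, with 4 residual degrees of freedom in either fit. Log2 differences understate changes of genes with few reads. Correlations over 6 gliomas used all 720 pairings, two-sided. The fits were tested on simulated data. Groups and replicates came from sample titles, and nothing in the p-values goes beyond the spread between these libraries. The genes, lists and tests were chosen with earlier results of these data known. Besides the 10 genes, the text names Mki67, the drivers, every list gene called and the 2 genes most like each of the 10. Genes of smallest p per list against the culture are also named, but not always 2. Of the PRC1 genes only Cbx2 is named, and of the demethylases and opposing writers only Nsd2. Hells, Cdca7, Phf19, Jarid2 and genes given only for context were named after their values were seen. Alternatives covered scaling, a pseudocount of 0.5 CPM, a minimum of 1 CPM in 3 libraries, voom weights on recovered reads, the replicate number as a block, the mitosis mean as a covariate, an adjusted p of 0.01, each glioma left out in turn and, added later, removal of the exon length trend and leaving out replicate 2 of both groups.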

Additional observations from a re-analysis of the deposited data

How the results depend on the processing

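The count of the 10 genes called between the glioma groups was 0 in all 16 alternatives, and that of the pathway genes was 0 too. Over all genes, 583 calls became 7 at an adjusted p of 0.01, 44 with the mitosis mean as a covariate, 0 without replicate 2 of both groups, and 4 to 1282 with 1 glioma left out. With the replicate number as a replicate block, 18 genes and 0 of the 10 were called; same-numbered gliomas deviated together with correlations of 0.175, -0.036 and -0.08, so the numbers do not pair the samples, and a block could not be fitted with the lone culture. Against the culture, the 1 of 10 genes called in the PDGF-B-labelled gliomas became 0 at an adjusted p of 0.01, under quantile normalization and with voom weights, 3 with the length trend removed, and 0 to 2 with 1 glioma left out. For the EGFRvIII-labelled gliomas, 1 became 0 at an adjusted p of 0.01 and with voom weights, 2 with the length trend removed, and 0 to 1 with 1 glioma left out. Pathway calls were 1 at an adjusted p of 0.01 and 11 with the length trend removed in the PDGF-B-labelled gliomas (2 to 6 with gliomas left out), and 1, 3 under quantile normalization, 2 with voom weights and 8 with the length trend removed in the EGFRvIII-labelled gliomas (3 to 5 with gliomas left out). Calls over all genes were 507 at an adjusted p of 0.01 and 553 with voom weights (854 to 2303 with 1 glioma left out), and 704 and 721 (1058 to 2030). The 1 gene correlated with the mitosis list by Pearson r became 3 with the DNA replication list and 0 when each library was centred on its median and under quantile normalization. It was also 0 with 1 glioma left out, where the smallest adjusted p that 1 gene can reach alone is 0.0833, so that count says nothing about stability. Small differences turned sign. Between the glioma groups these were Dnmt1 at 0.0533 (median centring) and 0.0984 (covariate), Uhrf1 at 0.0070 (covariate) and Dnmt3a at -0.0045 (length trend). Against the culture, in the PDGF-B-labelled gliomas they were Dnmt3a at -0.0004 (median centring) and -0.1592 (length trend) and Dnmt3b at -0.0552 (median centring), -0.2971 (quantile) and -0.2395 (length trend), and in the EGFRvIII-labelled gliomas Tet1 at -0.1828 (median centring) and -0.0359 (length trend). Correlations did so for Dnmt3b at -0.1135 (quantile) and -0.0411 (length trend) and Tet2 at 0.0163 (quantile). With gliomas left out, ranges that crossed 0 between the glioma groups were -0.3456 to 0.1837 for Dnmt1, -0.0351 to 0.3479 for Dnmt3a, -0.1255 to 0.4976 for Dnmt3b, -0.0746 to 0.6124 for Tet1, -0.2385 to 0.4189 for Tet3, -1.3851 to 0.4032 for Uhrf1, -0.0806 to 0.4007 for Ezh2 and -0.1029 to 0.1910 for Suz12. Against the culture they were -0.0076 to 0.0762 for Dnmt3b under the PDGF-B label and, under the EGFRvIII label, -0.2658 to 0.1172 for Dnmt3a, -0.4702 to 0.1529 for Dnmt3b and -0.2977 to 0.3623 for Tet1. Correlations ranged from -0.2349 to 0.4124 for Tet1, -0.3475 to 0.6823 for Tet2 and -0.9135 to 0.6384 for Eed. The cause of these changes was not tested. Depth limits Dnmt3b most, with 71 to 178 reads per library.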
